A study of Narcissus tazetta subsp. chinensis with 8 samples.

Results

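Flowers open and age as a set of organs, and the genes that set those organs apart at opening need not do so later in bloom. In the scented narcissus cultivar Jinzhanyintai the question was asked gene by gene: did the change from early flowering to full bloom differ between corolla and petal? The comparison took all 8 libraries of the series and the 26460 genes listed for both tissues above a low-level filter, and 173 of these genes passed the test of that difference. In 130 of them (75.1%) corolla and petal lay closer together at full bloom than at early flowering, and in 43 they lay further apart. The share that lay closer together was 57.1% without corolla day 7 repeat 1, 60.5% without petal day 7 repeat 2 and 58.5% with a block for the repeat number within each day. Among the genes that passed, those of chlorophyll synthesis and light harvesting were high in young corolla and fell there towards the petal level, and so were 3 SWEET sugar transporters, while a further one, SWEET1a, was lower in young corolla than in petal and rose. Some cell wall and aquaporin genes and 1 amino acid transporter were high in young petal, and that lead narrowed, was lost or reversed. Most of the passing wax and cutin genes fell in corolla, and petal was the higher tissue at full bloom.

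As background, a young petal is a greenish organ that photosynthesises weakly, and on opening its plastids lose chlorophyll and may store carotenoids or stay colourless. Opening is driven by cell expansion, for which cells loosen their walls, take in sugars and move water through aquaporins. The outer cells lay down a cuticle of cutin and wax, and the same cells make the volatile benzenoids and terpenoids of scent. Narcissus flowers carry a ring of tepals and a cup, and the cup of this cultivar is yellow.

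The 8 libraries formed 4 groups of 2 biological repeats, all of Narcissus tazetta var. chinensis cv Jinzhanyintai grown outdoors with no treatment named: corolla on day 1, petal on day 1, corolla on day 7 and petal on day 7. Day 1 was taken at early flowering and day 7 at full bloom. The labels name neither the number of flowers in a repeat nor how corolla was cut from petal. They do not say whether corolla here means the cup (the corona), the ring of tepals or the whole flower around the reproductive organs, so corolla and petal are used as the labels give them and the organ behind each corolla minus petal value is not known. With no more said of the repeats, p-values measure only the spread between these repeats. Messenger RNA was sequenced and assembled without a genome, so genes carry assembly identifiers and have no position here. Levels are FPKM, a count of sequenced fragments corrected for transcript length and for the size of the library. The genes tested were those listed for both tissues (50576 of 81096 listed for either) with at least 1 FPKM in at least 2 libraries.

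Between 21234 and 23962 genes of those listed for both tissues reached 1 FPKM in a library, and the correlation of repeats over the tested genes was 0.956 to 0.977 on the log2 scale. Total counts per library are unknown, and read counts divided by FPKM gave depths of 0.679 to 1.04 relative to corolla day 1 repeat 1, lowest in the second repeats of day 7. No marker in the files defines corolla against petal. Of the 4 MADS-box genes described in the files, a family that sets floral organ identity, 0 passed the interaction. With other scalings of the libraries 1 did. All were found in both tissues, but MADS-box 26 (c95745.graph_c0) stayed under 1 FPKM in every day 1 library. MADS-box 2 (c106110.graph_c1) was higher in corolla on both days, by 0.86 and 1.81 on the log2 scale.

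The test was the interaction of tissue and day in limma on log2(FPKM + 1), with Benjamini-Hochberg adjustment over all 26460 genes and a threshold of 0.05. It subtracts the change in petal from the change in corolla, which equals the corolla minus petal difference on day 7 less that on day 1. Each change stays within the table of its own tissue. Levels set side by side across tissues come from separate tables, whose FPKM were scaled library by library. An interaction above 0 means that corolla rose more, or fell less, than petal, and differences on this scale understate the change of weakly expressed genes.

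At early flowering 3680 genes (13.9%) differed between corolla and petal, 1617 (6.11%) higher in corolla and 2063 (7.8%) higher in petal. At full bloom 2726 genes (10.3%) did, 1074 (4.06%) higher in corolla and 1652 (6.24%) higher in petal. The same genes passed in the same direction on both days in 1633 cases, 44.4% of the day 1 genes and 59.9% of the day 7 genes, and 18 genes passed on both days in opposite directions. Over all genes the typical difference hardly moved, with a median absolute difference of 0.327 on day 1 and 0.319 on day 7 on the log2 scale, and 3119 and 2963 genes differed by at least 1 on that scale. The spread between repeats was wider on day 7. The median absolute difference between repeats was 0.187 in corolla and 0.192 in petal on day 1, and 0.243 and 0.319 on day 7. The split by direction depended on the scaling of the libraries: corolla-higher genes made up 43.9% of those passing on day 1 and 39.4% on day 7, and 53.7% and 53.6% with median-of-ratios scaling.

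The interaction passed in 173 genes (0.654%). In 104 (0.393%) corolla fell more or rose less than petal, and in 69 (0.261%) the reverse held. The balance of the directions turned with single libraries: the 69 are 39.9% of the calls, and positive calls made up 58.3% without corolla day 7 repeat 2, 56.5% without corolla day 1 repeat 2, 53.5% without petal day 7 repeat 2 and 18.8% without the variance trend. At an unadjusted p under 0.05 there were 2986. Without the trend that lets limma's prior variance depend on the level, 16 passed, and with median-of-ratios scaling 286. Leaving out corolla day 1 repeat 1 left 14 calls, corolla day 1 repeat 2 46, petal day 1 repeat 1 20, petal day 1 repeat 2 43, petal day 7 repeat 1 84 and corolla day 7 repeat 2 96, while 156 and 215 passed without corolla day 7 repeat 1 and petal day 7 repeat 2. All of the 170 to 173 genes still tested kept their sign in each of these fits. Without 1 library this was fixed in advance and lends the calls no support. In all 173 the corolla minus petal differences of single libraries did not overlap between the days, against 6776 of all genes tested (25.6%). This count uses the same values as the test, so it lends the calls no support either. Below, many of the genes described carry the number of the 8 fits without 1 library in which they passed. Where no such number is given, the call may rest on single libraries.

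The genes were sorted by the tissue difference on each day. In 83 genes the difference was lost, meaning that it passed on day 1 only, and its median size went from 2.20 to 0.315 on the log2 scale. It had favoured corolla in 47 of them and petal in 36. In 37 genes the difference narrowed but passed on both days, from a median of 3.52 to 1.35. A difference was gained in 28 genes, where it passed on day 7 only and went from 0.281 to 1.68, and petal was the higher tissue in 21 of these. It widened in 11 genes, from 1.90 to 4.01, with petal higher in 9. The order of the tissues reversed in 14 genes, 12 of them from higher in petal to higher in corolla. Among all genes tested, 13648 of 26460 had the smaller difference on day 7.

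**Figure D1:**
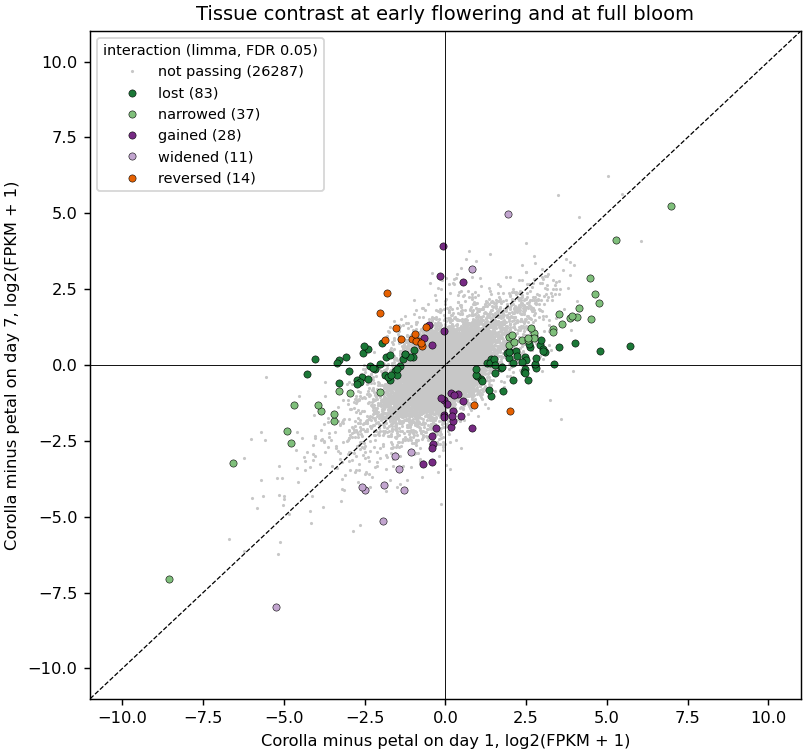
Corolla minus petal on day 1 (x axis) against day 7 (y axis) for 26460 genes, on the log2(FPKM + 1) scale. Grey points did not pass the interaction and lie around the dashed line of equal difference. Coloured points are the 173 that passed, by class: the 83 lost genes lie along the horizontal line of no difference on day 7, and the 28 gained genes along the vertical line of no difference on day 1.

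Passing genes could move in corolla, in petal or in both. The day effect passed in corolla alone for 79 of the 173 genes, in petal alone for 25, in both tissues in the same direction for 41 and in opposite directions for 28. Over all genes tested it passed in 4530 in corolla (17.1%) and 3921 in petal (14.8%). Of the 104 genes with a negative interaction, 98 fell in corolla, against 3065 of all genes tested (11.6%), and 20 rose in petal, against 1374 (5.19%). Of the 69 with a positive interaction, 44 rose in corolla, against 1465 of all genes (5.54%), and 39 fell in petal, against 2547 (9.63%). The sign of the interaction itself selects for these directions, so the excess over all genes is built in and is no separate result. In the authors' deposited tables, which compare the days within each tissue, 104 of the 173 genes were called in corolla only, 26 in petal only, 14 in both and 29 in neither.

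**Figure D2:**
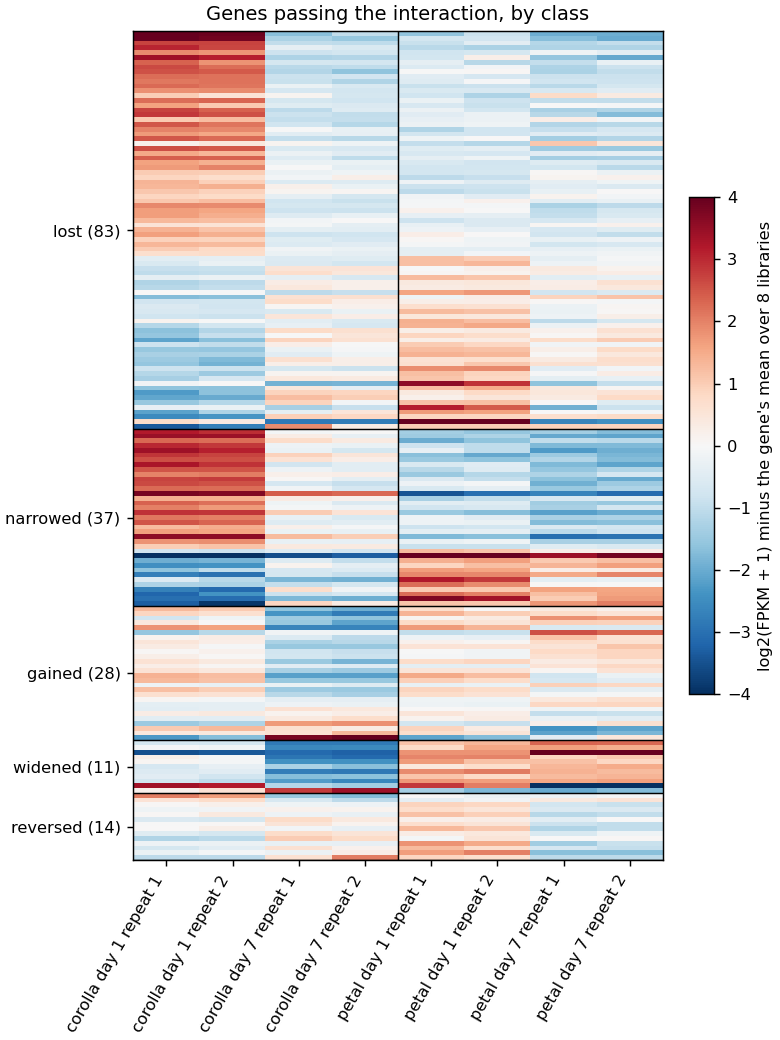
Each row is 1 of the 173 genes that passed the interaction and each column 1 library. Colour is log2(FPKM + 1) minus the gene's mean over the 8 libraries, from -4 (blue) to 4 (red). Among lost and narrowed genes the largest block is red in the corolla day 1 libraries alone, and among gained and widened genes the corolla day 7 libraries are mostly blue.

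Descriptions of gene products exist in the files for genes that the authors called in at least 1 tissue. Of 1884 described genes tested, 130 passed the interaction (6.9%), 50 positive (2.65%) and 80 negative (4.25%), so lists of described genes are read against these shares. The tissue difference passed in 50.1% of described genes on day 1 (27.4% higher in corolla, 22.7% higher in petal) and in 34.1% on day 7 (16.7% and 17.4%). The day effect passed in 85.5% in corolla (26.2% rose, 59.3% fell) and in 71.5% in petal (22.4% and 49.1%).

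Most photosynthesis genes were higher in corolla at early flowering, and fewer were at full bloom. Of 47 photosynthesis genes tested, 42 were higher in corolla on day 1 and 23 on day 7, against 1 and 2 higher in petal. All 47 fell in corolla and 28 fell in petal. Their median difference between the tissues went from 2.45 to 0.69 on the log2 scale, it was smaller on day 7 for 41 of the 47, and the median interaction was -1.22 beside -0.16 for all described genes. The interaction itself passed in 5, all negative. Summed over the list, levels were 6674 and 6402 FPKM in corolla on day 1 and 1757 and 1493 on day 7, and in petal 1787 and 1772 on day 1 and 738 and 707 on day 7. Corolla at full bloom stood just below petal at early flowering, and the groups within each day did not overlap. In bulk tissue, fewer green cells and less transcript per cell cannot be told apart.

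Chlorophyll a-b binding protein 4 (c107054.graph_c2), which holds chlorophyll in a light-harvesting antenna, stood at 103 and 85.4 FPKM in corolla on day 1 and 3.25 and 3.41 on day 7, and at 4.98 and 10.7 in petal on day 1 and 2.42 and 1.43 on day 7. Only the corolla day 1 libraries were high, and the tissues lay within a few FPKM of each other on day 7 without overlapping. Its interaction was -2.92 ± 0.44 SE (limma adjusted p = 0.0343; 1 of 8 fits). The antenna protein 37 (c104270.graph_c2) went from 123 and 91.3 to 8.36 and 8.78 FPKM in corolla and from 12.5 and 17.4 to 7.34 and 9.83 in petal, with overlapping tissues on day 7 (-2.75 ± 0.30, limma adjusted p = 0.0114; 6 of 8 fits). Photosystem I subunit V (c87069.graph_c0), a subunit of the photosystem I complex, showed the same order at lower levels, with 36 and 34 FPKM in corolla on day 1 and 1.11 to 5.62 FPKM in the other 6 libraries (-2.74 ± 0.30, limma adjusted p = 0.0111; 4 of 8 fits).

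The enzymes that make chlorophyll moved with the proteins that bind it. Of 12 chlorophyll genes, 11 were higher in corolla on day 1 and 6 on day 7, none was higher in petal on either day, all 12 fell in corolla and 9 fell in petal. The interaction passed in 6, all negative, and the median difference went from 2.46 to 0.69. Magnesium chelatase inserts magnesium and so commits the porphyrin to chlorophyll. Its subunit ChlI (c100099.graph_c0) stood at 202 and 198 FPKM in corolla on day 1 and 22.1 and 13.7 on day 7, and at 5.99 and 6.86 in petal on day 1 and 3.51 and 3.36 on day 7. Corolla stayed the higher tissue on both days, with no overlap, while the gap shrank from 4.76 to 2.06 (-2.70 ± 0.29, limma adjusted p = 0.0110; 5 of 8 fits).

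Subunit ChlH (c109661.graph_c0) lost its gap altogether. It went from 38.7 and 39.9 to 3.91 and 3 FPKM in corolla and stood at 5.38 and 7.75 in petal on day 1 and 4.27 and 4.08 on day 7, and the change in petal did not pass. On day 7 both corolla libraries were below both petal libraries (-2.65 ± 0.29, limma adjusted p = 0.0110; 5 of 8 fits). The cyclase that acts on magnesium-protoporphyrin IX monomethyl ester (c106346.graph_c1), a later step, had 45.8 and 48.3 FPKM in corolla on day 1 and 6.98 to 8.62 FPKM in the other 6 libraries. Its interaction of -2.63 ± 0.20 passed in 8 of 8 fits (limma adjusted p = 0.00275). Geranylgeranyl diphosphate reductase (c103829.graph_c0), which makes the phytol tail of chlorophyll, went from 173 and 167 to 42.7 and 35.2 FPKM in corolla and stood at 18.3 and 24.5 in petal on day 1 and 22.3 and 26.8 on day 7. It remained above petal in every corolla library, by 0.64 on day 7, which was just short of passing (-2.30 ± 0.24, limma adjusted p = 0.0103; 5 of 8 fits).

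Of 34 ribosomal proteins with a plastid or bacterial-type name, 31 were higher in corolla on day 1 and 27 still were on day 7, and the median difference went from 1.82 to 1.04. The interaction passed in 2 (5.88%), both negative, which is near the 6.9% of described genes. Ribosomal protein L34 (c86376.graph_c0) went from 70 and 66.8 to 18 and 17.5 FPKM in corolla and from 16.5 and 17 to 10.2 and 11.8 in petal, falling in both but further in corolla (-1.32 ± 0.18, limma adjusted p = 0.0264; 2 of 8 fits). Of the 29 other ribosomal proteins tested, 0 passed the interaction or either tissue difference. Their median absolute difference between the tissues was exactly 0 on day 1 and 0.46 on day 7. Genes at 0 FPKM in both tissues give such a value of 0, so their day 1 result is no contrast to the plastid names. Leaving out 1 library at a time, between 0 and 9 photosynthesis genes, 1 and 6 chlorophyll genes and 0 and 7 plastid ribosomal genes passed. With median-of-ratios scaling 12 photosynthesis and 8 plastid ribosomal genes passed, all negative.

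**Figure D3:**
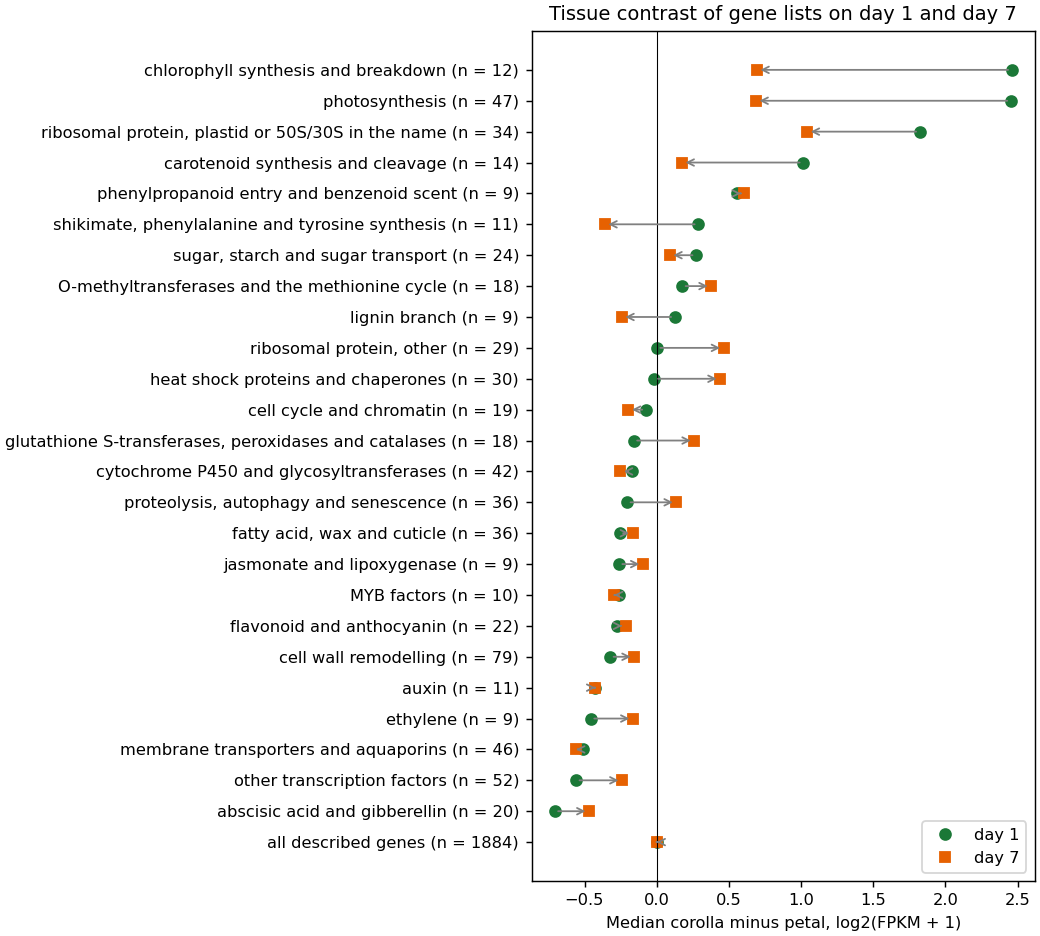
Median corolla minus petal difference, log2(FPKM + 1), on day 1 (circles) and day 7 (squares) for gene lists with at least 9 genes tested. An arrow runs from day 1 to day 7, and the number of genes tested is in brackets. Ribosomal proteins are split into plastid and other. Shorter lists are not drawn, among them the 3 proteinase inhibitors, whose median went from -1.50 to 1.71. The chlorophyll and photosynthesis lists go from 2.46 and 2.45 to 0.69 and 0.69, the longest arrows in the plot, while the median of all 1884 described genes stays close to 0 on both days.

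Of the 14 carotenoid genes tested, all had a smaller difference between the tissues on day 7 in the limma fit, beside 1192 of 1884 described genes, and its median size went from 2.61 to 1.03. For lycopene epsilon cyclase the gap went only from 2.98 to 2.90, and its interaction turned positive, at 0.303, with a pseudocount of 0.1 and in the count tests (0.311 to 0.368). On day 1, 10 of the 14 were higher in corolla and 4 in petal, and on day 7, 4 and 3. The interaction passed in 4, of which 2 were negative and 2 positive, and in 0 to 3 when 1 library was left out. Phytoene synthase (c101402.graph_c0), which makes the first carotenoid, stood at 354 and 330.1 FPKM in corolla on day 1 and 136 and 126 on day 7, and at 1.32 and 2.17 in petal on day 1 and 3.12 and 2.01 on day 7. It stayed far higher in corolla, where it fell, while the change in petal did not pass (-1.75 ± 0.28, limma adjusted p = 0.0407; 1 of 8 fits). Beta-carotene isomerase D27 (c103044.graph_c0), which opens the route from carotene to strigolactones, went from 104 and 100.4 to 27.6 and 19.5 FPKM in corolla and from 4.04 and 3.33 to 2.14 and 2.52 in petal (-1.60 ± 0.27, limma adjusted p = 0.0477; 1 of 8 fits).

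Carotenoid cleavage dioxygenase 4 breaks carotenoids down and is known for keeping chrysanthemum petals white. Gene c104683.graph_c0 stood at 499 and 429.6 FPKM in petal on day 1 and 246 and 321 on day 7, and at 10.8 and 19.4 FPKM in corolla on day 1 and 58.1 and 65.2 on day 7. Every petal library was above every corolla library. The gap went from -4.90 to -2.17 as corolla rose (2.73 ± 0.35, limma adjusted p = 0.0200; 3 of 8 fits). Another assembled gene of the same description (c109231.graph_c0) also narrowed, from a difference of -8.55 to -7.05 (limma adjusted p of the interaction = 0.0413). Reads may be split between such copies. The other genes described as phytoene synthase (c96068.graph_c0) and isomerase D27 (c108685.graph_c0) did not pass the interaction.

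The pathway that feeds plastid terpenoids held a gene whose tissue difference vanished beside a relative that rose in both tissues. The synthase of 1-deoxy-D-xylulose 5-phosphate starts that pathway. Synthase 1 (c107914.graph_c0) stood at 181 and 162 FPKM in corolla on day 1, and at 40.6 and 43.4 in corolla and 40.3 and 37.7 in petal on day 7, with 32.9 and 31.9 in petal on day 1. Corolla on day 1 was the only high group, and the interaction of -2.26 ± 0.16 passed in 8 of 8 fits (limma adjusted p = 0.00230). Synthase 2 (c106934.graph_c1) went from 180.5 and 211 to 713 and 815 FPKM in corolla and from 89.5 and 117 to 353 and 534 in petal. It rose in both tissues, and its interaction was -0.12 ± 0.31 (limma adjusted p = 0.946).

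At the entry to phenylpropanoids, a pair of phenylalanine ammonia-lyase genes parted the tissues in opposite directions. Another phenylalanine ammonia-lyase gene (c78531.graph_c0) did not pass the interaction. This enzyme turns phenylalanine into cinnamate, from which benzenoid scent and lignin are made. Gene c103612.graph_c0 was level on day 1, with 162 and 145 FPKM in corolla and 174 and 144 in petal, and on day 7 stood at 12.7 and 12.6 in corolla and 34.8 and 50.4 in petal. It fell in both tissues and further in corolla, so petal was higher at full bloom (-1.61 ± 0.26, limma adjusted p = 0.0403; 2 of 8 fits). Gene c93919.graph_c0 had 26.6 and 32.3 FPKM in corolla and 24 and 16 in petal on day 1, and 20 and 16 in corolla and 1.55 and 2.14 in petal on day 7. Here petal fell, the change in corolla did not pass, and corolla was the higher tissue on day 7 with no overlap (2.18 ± 0.32, limma adjusted p = 0.0321; 1 of 8 fits). The opposite signs held in every alternative fit that tested them, although without 1 library they could not have turned.

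The interaction of 8 further scent and pigment genes did not pass in the limma fit, although 2 of them passed in some alternatives. Benzyl alcohol O-benzoyltransferase (c95879.graph_c2), which makes the scent ester benzyl benzoate, went from 57 and 61.8 to 183 and 163 FPKM in corolla and from 1082 and 1121 to 1598 and 1961 in petal. It was higher in every petal library, it rose in both tissues, and the interaction was 0.84 ± 0.20 (limma adjusted p = 0.132). It passed without petal day 7 repeat 2 (limma adjusted p = 0.0470) and with both other scalings (0.0248 with TMM), and over all its alternatives the limma adjusted p ran from 0.0248 to 0.484. Zeaxanthin epoxidase (c104304.graph_c0), which makes violaxanthin, gave 0.96 ± 0.31 (limma adjusted p = 0.273). Among the 520 genes with counts it passed in DESeq2 (adjusted p = 0.0256) and in both edgeR fits, and over all its alternatives the adjusted p ran from 0.0256 to 0.643. The interaction of terpene synthase 4 (c101367.graph_c0) was 0.76 ± 0.35 (limma adjusted p = 0.472). The aldolase that starts the shikimate pathway, DAHP synthase 2 (c99662.graph_c0), gave 0.74 ± 0.39 (limma adjusted p = 0.554). Arogenate/prephenate dehydratase 1 (c106196.graph_c0), which makes phenylalanine, and Myb305 (c105121.graph_c1), named after a snapdragon regulator of phenylpropanoid genes, gave -0.37 ± 0.18 (limma adjusted p = 0.509) and 0.39 ± 0.38 (limma adjusted p = 0.781). The interaction of lycopene epsilon cyclase (c109754.graph_c4), a carotenoid branch enzyme, was -0.08 ± 0.20 (limma adjusted p = 0.944), and that of trans-resveratrol di-O-methyltransferase (c48302.graph_c0) was 0.40 ± 0.59 (limma adjusted p = 0.879). The SE of these 8 interactions ran from 0.18 to 0.59 on the log2 scale, and a p above the threshold does not show that the tissues changed alike.

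**Figure D4:**
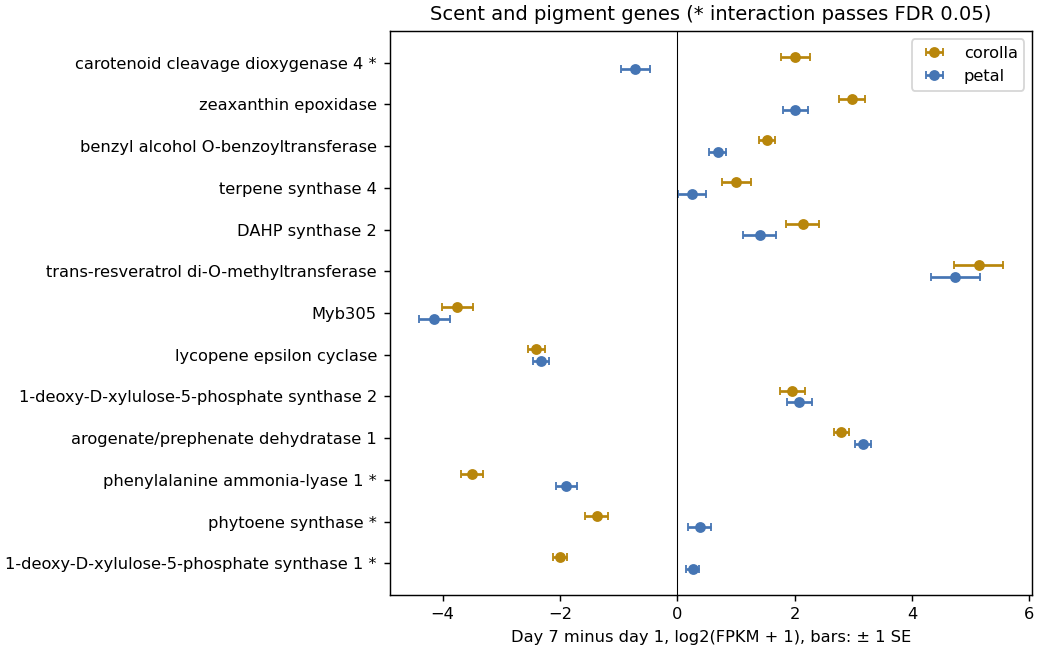
Change from day 1 to day 7 in corolla and petal, log2(FPKM + 1), for 13 scent and pigment genes, with bars of 1 SE from the limma fit. A star marks the 4 genes that passed the interaction: synthase 1, phytoene synthase and carotenoid cleavage dioxygenase 4 changed in corolla and not past the threshold in petal, and phenylalanine ammonia-lyase 1 fell in both.

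Several genes of the cuticle parted the tissues as the flower aged. Of the 36 fatty acid, wax and cuticle genes tested, 7 passed the interaction, 6 negative and 1 positive. With median-of-ratios scaling 10 passed as negative, and 2 to 7 passed in all when 1 library was left out. Of those 7, corolla and petal drew further apart in 5, with petal the higher tissue at full bloom in each. On day 1, 11 members were higher in corolla and 10 in petal, and on day 7, 10 and 14. The clearest was ECERIFERUM 1 (c103187.graph_c0), needed to make the alkanes of wax. It stood at 15.6 and 15.2 FPKM in corolla on day 1 and 2.8 and 2.76 on day 7, and at 58.2 and 66.1 in petal on day 1 and 135 and 130.4 on day 7. It fell in corolla and rose in petal, with no overlap between any of the groups, and the gap grew from -1.94 to -5.14 (-3.20 ± 0.17, limma adjusted p = 0.000727; 8 of 8 fits). Another gene of that description (c102117.graph_c4) widened too (-1.98 ± 0.30, limma adjusted p = 0.0335). So did 3-ketoacyl-CoA synthase 10 (c96585.graph_c0), which lengthens fatty acids for wax (-2.06 ± 0.21, limma adjusted p = 0.00828). Further genes of the list described as ECERIFERUM 1 (c100302.graph_c0), 3-ketoacyl-CoA synthase 6 or 11, or palmitoyl-ACP thioesterase did not pass. The results here hold for the assembled genes named.

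3-ketoacyl-CoA synthase 11 (c102727.graph_c0) gained its difference, since day 1 levels were 225 and 190.3 FPKM in corolla and 316 and 244 in petal and day 7 levels 23.3 and 17 in corolla and 207 and 179 in petal. The corolla day 7 libraries alone were low (-2.79 ± 0.27, limma adjusted p = 0.00808; 7 of 8 fits). ECERIFERUM 3 (c109443.graph_c1), the partner of ECERIFERUM 1 in alkane synthesis, had 779.8 and 667 FPKM in corolla and 628 and 579 in petal on day 1, and 121 and 121 in corolla and 224 and 265 in petal on day 7. It fell in both tissues and further in corolla (-1.26 ± 0.19, limma adjusted p = 0.0366; 2 of 8 fits). 3-ketoacyl-CoA synthase 6 (c98698.graph_c0) went the other way, with 7.36 and 7.12 FPKM in corolla and 32.6 and 26.4 in petal on day 1, and 6.8 and 6.69 in corolla and 2.68 and 4.2 in petal on day 7. The change in corolla did not pass and petal fell, so the order of the tissues reversed (2.70 ± 0.29, limma adjusted p = 0.0110; 5 of 8 fits).

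A further 3 genes of cutin synthesis, outside that list, also passed as negative. They are named for the size of their interaction or their level. Cytochrome P450 86A2 (c99973.graph_c0), which hydroxylates fatty acids for cutin, had 12.8 and 10.8 FPKM in corolla and 8.08 and 4.77 in petal on day 1, and 0.85 and 0.46 in corolla and 6.32 and 5.48 in petal on day 7. Corolla fell and the change in petal did not pass (-2.89 ± 0.37, limma adjusted p = 0.0200; 2 of 8 fits). Glycerol-3-phosphate acyltransferase 6 (c102074.graph_c2), which joins cutin monomers to glycerol in Arabidopsis petals, had 401 and 348 FPKM in corolla and 372 and 294 in petal on day 1, and 17.4 and 17.3 in corolla and 73.6 and 76.5 in petal on day 7. It fell in both tissues, further in corolla, and the tissues overlapped on day 1 and not on day 7 (-2.23 ± 0.20, limma adjusted p = 0.00543; 7 of 8 fits). The acyltransferase DCR (c102914.graph_c0), also needed for cutin, went from 27.9 and 26.1 to 4.09 and 4.2 FPKM in corolla and from 51.3 and 89.2 to 94 and 82.7 in petal, which was higher on both days (-2.82 ± 0.32, limma adjusted p = 0.0132; 5 of 8 fits).

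The largest interaction of the list was of another kind. The palmitoyl-ACP thioesterase (c103026.graph_c0) releases palmitate from plastid synthesis. It stood at 82.1 and 66 FPKM in corolla on day 1 and at 0.14 to 1.75 FPKM in the other 6 libraries. On day 7 the gene was still higher in corolla (0.93 and 0.61 FPKM) than in petal (0.43 and 0.14). At these levels, under 1 FPKM, it did not pass between the tissues. Its lead in corolla was lost (-4.31 ± 0.33, limma adjusted p = 0.00275; 8 of 8 fits).

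Sugar transport showed the largest interaction of the described genes. SWEET proteins let sugars pass the cell membrane down their gradient. SWEET4 (c54457.graph_c0) stood at 134 and 57.8 FPKM in corolla on day 1 and 0.22 and 0.95 on day 7, and at 0.31 and 1.15 in petal on day 1, and it is listed at 0 in both petal libraries on day 7. Only the corolla day 1 libraries were high, although they differed from each other, and the interaction was -5.10 ± 0.61 (limma adjusted p = 0.0153; 5 of 8 fits). SWEET13 (c96588.graph_c0) went from 29.1 and 25 to 2.15 and 2.28 FPKM in corolla, with 0 to 0.31 FPKM in the 4 petal libraries (-3.01 ± 0.35, limma adjusted p = 0.0132; 4 of 8 fits). SWEET14 (c94280.graph_c0) had 7.5 and 7.18 FPKM in corolla on day 1 and 0 to 0.32 FPKM elsewhere. Its interaction was -2.72 ± 0.40 (limma adjusted p = 0.0311). Without either corolla day 1 library it fell below the filter and was not tested, and its call was lost in each of the 6 other fits.

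Another member of the family, SWEET1a (c101302.graph_c0), moved in the opposite direction. It rose from 119.9 and 121 to 336 and 246 FPKM in corolla and stood at 236 and 242 in petal on day 1 and 211 and 193 on day 7, and the higher petal level of day 1 was gone on day 7 (1.49 ± 0.22, limma adjusted p = 0.0311; 2 of 8 fits). Of the 24 sugar and starch genes tested, 5 passed the interaction, 4 negative and 1 positive, and 1 to 4 passed without 1 library. The fifth, a galactinol-sucrose galactosyltransferase of raffinose synthesis (c109503.graph_c2), had 112 and 95.5 FPKM in corolla and 89.7 and 84.1 in petal on day 1, and 32.3 and 35.7 in corolla and 132 and 119.8 in petal on day 7. It fell in corolla and rose in petal, so petal was higher at full bloom (-2.10 ± 0.18, limma adjusted p = 0.00474; 8 of 8 fits).

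**Figure D5:**
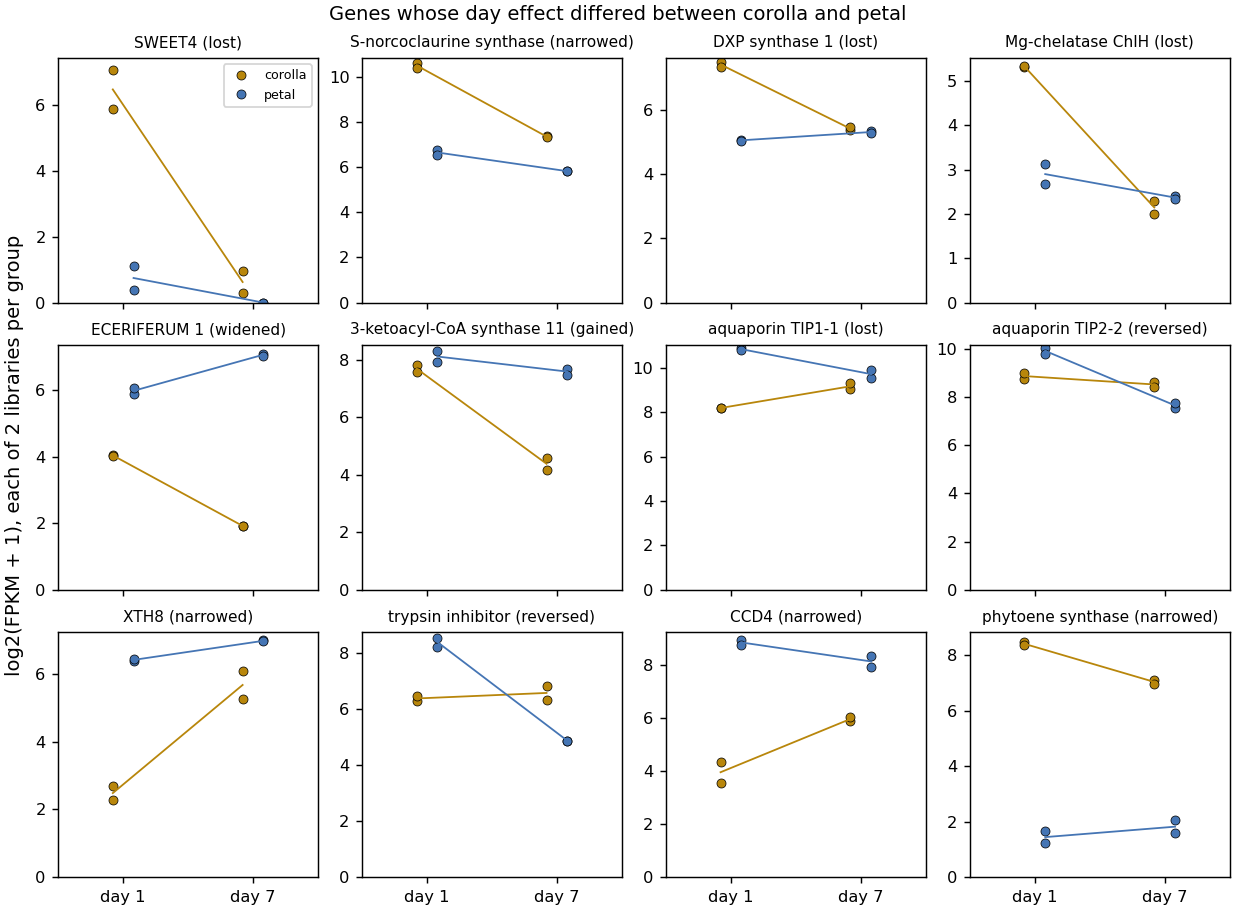
log2(FPKM + 1) in each of the 8 libraries for 12 genes that passed the interaction, with lines joining the means of the 2 libraries on day 1 and day 7 in corolla and petal. Lines that meet on day 7 mark lost differences (SWEET4, synthase 1, ChlH), lines that part mark gained or widened differences (ECERIFERUM 1, 3-ketoacyl-CoA synthase 11), and crossing lines mark reversals (aquaporin TIP2-2, the trypsin inhibitor).

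Of 79 cell wall genes tested, 31 were higher in petal and 14 in corolla on day 1, and 17 and 12 on day 7. The interaction passed in 8, of which 6 were positive and 2 negative, beside 1 to 7 without 1 library. Xyloglucan endotransglucosylase/hydrolases cut and rejoin the xyloglucan that ties cellulose together. Gene 8 of that family (c96460.graph_c2) stood at 5.4 and 3.87 FPKM in corolla on day 1 and 68 and 37.1 on day 7, and at 83.3 and 86.1 in petal on day 1 and 127 and 125 on day 7. Petal was above corolla throughout and passed on both days, so its lead narrowed without being lost. Corolla rose, and the change in petal did not pass (2.63 ± 0.36, limma adjusted p = 0.0257; 2 of 8 fits). Gene 2 (c96460.graph_c3) had the same order (3.38 ± 0.35, limma adjusted p = 0.00888; 7 of 8 fits), but both belong to 1 assembly component and reads may be split between them.

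Fasciclin-like arabinogalactan protein 11 (c93723.graph_c0), a cell surface protein tied to wall strength in Arabidopsis, had 0.84 and 2.45 FPKM in corolla and 25.8 and 24.1 in petal on day 1, and 5.2 and 10.5 in corolla and 7.25 and 6.73 in petal on day 7. It rose in corolla and fell in petal until the tissues overlapped (3.44 ± 0.50, limma adjusted p = 0.0306; 2 of 8 fits). Pectinesterase 34 (c104653.graph_c0), which removes methyl groups from pectin, had 227 and 289 FPKM in corolla and 496 and 425 in petal on day 1, and 189.5 and 177 in corolla and 102 and 109 in petal on day 7. Petal fell from above corolla to below it (1.63 ± 0.21, limma adjusted p = 0.0200; 3 of 8 fits). Pectate lyase 13 (c96564.graph_c1), which cuts pectin and is not in the list, also reversed, at lower levels (1.35 ± 0.20, limma adjusted p = 0.0321; 1 of 8 fits).

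The interaction passed in 5 of 46 membrane transporter genes, all positive, while the median over the list was -0.51, of the opposite sign, with 28 of the 46 below 0. On day 1, 17 members were higher in petal and 9 in corolla, and on day 7, 13 and 3. Other aquaporins and amino acid transporters of the list did not pass. Without 1 library 0 to 6 passed. The vacuolar aquaporin TIP1-1 (c94097.graph_c0), a water channel and the most abundant of them, stood at 1882 and 1779 FPKM in petal on day 1 and 742 and 948 on day 7, and at 287 and 294 in corolla on day 1 and 524 and 628 on day 7. Petal stayed above corolla, but it fell while corolla rose, and the difference of -0.55 on day 7 did not pass (2.10 ± 0.23, limma adjusted p = 0.0112; 4 of 8 fits). Aquaporin TIP2-2 (c102489.graph_c0) had 432 and 505 FPKM in corolla and 1041 and 894 in petal on day 1, and 398 and 337 in corolla and 185 and 216 in petal on day 7. Petal fell below corolla, without overlap on either day (1.92 ± 0.22, limma adjusted p = 0.0132; 4 of 8 fits). Lysine histidine transporter 1 (c106200.graph_c0), which takes up amino acids, rose from 1.27 and 1.39 to 21.9 and 18.2 FPKM in corolla and stood at 10.1 and 12.6 in petal on day 1 and 11.5 and 16 on day 7. Corolla went from below every petal library to above every petal library, although the difference on day 7 did not pass (2.92 ± 0.29, limma adjusted p = 0.00828; 7 of 8 fits).

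Among the described genes the largest reversal was that of a trypsin inhibitor (c96639.graph_c0), a kind of protein that blocks digestive proteases of insects. It stood at 300.2 and 376 FPKM in petal on day 1 and 28.3 and 28.3 on day 7, and at 77.3 and 87.6 in corolla on day 1 and 78.9 and 113 on day 7. Petal fell from above every corolla library to below every corolla library, and corolla did not change past the threshold (3.72 ± 0.26, limma adjusted p = 0.00230; 8 of 8 fits).

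Specialised metabolism held further cases. The S-norcoclaurine synthase gene (c106745.graph_c0), named for an enzyme that condenses the first scaffold of benzylisoquinoline alkaloids in poppy relatives, went from 1526 and 1348 to 165 and 158 FPKM in corolla and from 105 and 92.5 to 55.5 and 54.9 in petal. Corolla was higher in every library, by 3.85 on day 1 and 1.53 on day 7 (-2.32 ± 0.17, limma adjusted p = 0.00243; 8 of 8 fits). The gene described as codeine O-demethylase (c100255.graph_c0), a poppy dioxygenase, went from 8.27 and 11.5 to 72.8 and 59.8 FPKM in corolla, beside 46.5 and 49.9 in petal on day 1 and 65.4 and 79.7 on day 7, when the tissues overlapped (2.07 ± 0.26, limma adjusted p = 0.0176; 4 of 8 fits). Chalcone isomerase 3 (c94522.graph_c0), of the flavonoid pathway, fell from 431 and 407 to 76.2 and 73.7 FPKM in corolla and from 151 and 135 to 66 and 83.4 in petal, with overlapping tissues on day 7 (-1.53 ± 0.20, limma adjusted p = 0.0199; 3 of 8 fits). The isoflavone reductase-like gene (c78614.graph_c0) widened instead, from 3.57 and 4.88 to 27.1 and 40.8 FPKM in corolla against 0 to 0.56 FPKM in petal (3.02 ± 0.41, limma adjusted p = 0.0249; 2 of 8 fits). Over the 22 flavonoid genes 3 passed as positive and 1 as negative, and over the 5 alkaloid-related genes 1 and 1.

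Regulators were read against the same share of described genes, 6.9%. Of 52 transcription factors outside the MYB, NAC and MADS-box families, 21 were higher in petal on day 1 and 8 on day 7. The interaction passed in 2 (3.85%). CONSTANS-LIKE 7 (c99027.graph_c1), of a family known from light signalling, stood at 21.8 and 16.8 FPKM in corolla on day 1 and at 0.16 to 1.16 FPKM in the other 6 libraries (-3.31 ± 0.37, limma adjusted p = 0.0123; 4 of 8 fits). bHLH63 (c102705.graph_c0), described in Arabidopsis as a partner of blue light receptors, had 2.71 and 2.02 FPKM in corolla and 18.1 and 14.1 in petal on day 1, and 7.76 and 7.9 in corolla and 6.93 and 9.14 in petal on day 7. It rose in corolla and fell in petal until the tissues overlapped (2.32 ± 0.30, limma adjusted p = 0.0200; 2 of 8 fits). The MYB list (10 genes), the NAC list (5) and the MADS-box list (4) held 0 passing genes. They are too short to set that apart from 6.9%.

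Among hormone genes, 3 of 11 auxin genes passed, 2 as positive and 1 as negative. The negative one, auxin-induced protein 5NG4 (c92680.graph_c0), went from 12.6 and 9.18 to 2.5 and 1.35 FPKM in corolla. It stood at 16.2 and 13.5 in petal on day 1 and 18.4 and 18.2 on day 7. Petal was the higher tissue at full bloom (-2.32 ± 0.33, limma adjusted p = 0.0299). The auxin-repressed 12.5 kDa protein (c99383.graph_c0), of a family named in strawberry for being lowered by auxin, rose from 161 and 131 to 699 and 528 FPKM in corolla and stood at 663 and 705 in petal on day 1 and 577 and 728 on day 7. Corolla on day 1 was the low group and the tissues overlapped on day 7 (2.14 ± 0.26, limma adjusted p = 0.0176; 4 of 8 fits). The protein similar to ARG7 (c110494.graph_c0), of the small auxin-up family, fell in petal from 320.1 and 300.0 to 109.7 and 138 FPKM beside 84.9 and 82.9 in corolla on day 1 and 86.4 and 109 on day 7 (1.53 ± 0.22, limma adjusted p = 0.0299; 2 of 8 fits). The abscisic acid and gibberellin list (20 genes), the ethylene list (9) and the jasmonate and lipoxygenase list (9) held 0 passing genes. So did the lists of shikimate and phenylalanine synthesis (11), lignin (9), O-methyltransferases (18) and cell cycle and chromatin (19). Each of these lists is too short to set 0 apart from the 6.9% of described genes. In the lists not yet described, the interaction passed in 1 of 30 genes of the heat shock and chaperone list. That gene is described as a 26S protease regulatory subunit (c107246.graph_c0), not as a heat shock protein or chaperone. The interaction also passed in 1 of 36 of proteolysis and senescence and 1 of 18 glutathione S-transferases and peroxidases. Among cytochromes P450 and glycosyltransferases 2 of 42 passed, and 1 of 3 proteinase inhibitors. The interaction was also found in the lists of scent precursors. It passed in 2 of 6 genes of the plastid terpenoid list, synthase 1 and geranylgeranyl diphosphate reductase, and in 2 of 9 of the phenylpropanoid entry list, the ammonia-lyase pair.

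Markers of other tissue were read beside these results. Of 8 pollen and anther genes, 1 passed the interaction, a glucan endo-1,3-beta-glucosidase (c109664.graph_c0; -1.85 ± 0.29, limma adjusted p = 0.0403). That gene is also in the cell wall list. On day 1, 5 of the 8 were higher in corolla and 3 in petal, and on day 7, 4 and 0. A sum over the 8 therefore mixes opposite differences on day 1. Their summed level was 130 and 186 FPKM in corolla on day 1 and 241 and 144 on day 7, and 113 and 91.7 in petal on day 1 and 57.0 and 51.4 on day 7, and 1 member (c53695.graph_c0) is listed at 0 in 3 of the 4 petal libraries. Of 20 genes whose best database hit lies outside land plants, 15 were tested and 0 passed. Their summed level was 0 FPKM in both corolla libraries and 0 and 0.11 in the petal libraries on day 1, and 50.8 and 21.3 in corolla and 13.9 and 38.5 in petal on day 7. Their part in the differences above was not tested.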

How the data were processed

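RNA from corolla and petal on 2 days was sequenced from poly-A selected libraries, 2 per group, per the labels. Bowtie and RSEM are named in the submitters' processing notes without versions. The deposited tables of all genes give FPKM per library, together with an adjusted p-value and a log2 fold change by the authors, per the file headers. The authors' count columns cover called genes only, so FPKM were used and total depth is unknown. Every column of per-library values matched a sample of the series.

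FPKM of both tissues were joined by gene identifier and log2(FPKM + 1) was computed for genes with at least 1 FPKM in 2 of 8 libraries. limma 3.58.1 in R 4.3.3 was fitted to 4 group means with a variance trend and no block, with two-sided tests and Benjamini-Hochberg adjustment. The fit was tested on simulated data. Counts of 520 genes called by the authors in both tissues were also tested with edgeR 4.0.16 and DESeq2 1.42.0. Python 3.11.15, pandas 2.3.3, numpy 2.4.6 and matplotlib 3.10.9 made tables and plots.

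Genes named were the 12 described genes of largest interaction per direction, the 6 of highest level in the lost, gained and reversed classes, up to 3 of largest interaction per list (30 lists), 13 scent and pigment genes and 2 undescribed genes per direction. A few further passing genes, chosen after their values were seen, are the other carotenoid cleavage dioxygenase 4, ECERIFERUM 1 and 3-ketoacyl-CoA synthase 10 genes and those of the closing observations. The genes, lists and tests were chosen with earlier results of these data known. Alternatives were another pseudocount and filters, median-of-ratios and TMM scaling, no variance trend, a block on the repeat number, genes of 1 table added at 0, each library left out, and the count tests. No genome or sequence was used here.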

Additional observations from a re-analysis of the deposited data

Results flagged for a closer look

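The day effect differed between corolla and petal, by the interaction term itself, in 173 genes (limma, Benjamini-Hochberg adjusted p under 0.05). Each named gene that passed is given here with its interaction on the log2(FPKM + 1) scale, where a negative value means that corolla fell more or rose less than petal. No explanation is weighed for any of them.

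Among sugar and lipid genes the values were -5.10 for SWEET4, -3.01 for SWEET13, -2.72 for SWEET14, 1.49 for SWEET1a and -2.10 for the galactinol-sucrose galactosyltransferase. Wax and cutin genes gave -4.31 for palmitoyl-ACP thioesterase, -3.20 for ECERIFERUM 1, -1.26 for ECERIFERUM 3, -2.79 for 3-ketoacyl-CoA synthase 11 and 2.70 for synthase 6 of that family. They also gave -2.89 for cytochrome P450 86A2, -2.82 for the acyltransferase DCR and -2.23 for glycerol-3-phosphate acyltransferase 6.

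Plastid genes gave -2.92 and -2.75 for chlorophyll a-b binding proteins 4 and 37, -2.74 for photosystem I subunit V, -1.32 and -1.07 for plastid ribosomal proteins L34 and L6, and -3.05 for TIC 32. Chlorophyll synthesis gave -2.70 for ChlI, -2.65 for ChlH, -2.63 for the cyclase and -2.30 for geranylgeranyl diphosphate reductase. Carotenoid and terpenoid genes gave -2.26 for synthase 1, -1.75 for phytoene synthase, -1.60 for isomerase D27 and 2.73 for carotenoid cleavage dioxygenase 4.

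In phenolic and alkaloid metabolism the values were -1.61 and 2.18 for the phenylalanine ammonia-lyases c103612.graph_c0 and c93919.graph_c0, -1.53 for chalcone isomerase 3 and 3.02 for the isoflavone reductase-like gene. They were 2.17 for flavonol 4'-sulfotransferase (c105089.graph_c1), 2.07 for codeine O-demethylase and -2.32 for S-norcoclaurine synthase.

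Cell wall genes gave 3.44 for the fasciclin-like protein 11, 3.38 and 2.63 for xyloglucan endotransglucosylase/hydrolases 2 and 8, 1.63 for pectinesterase 34, 1.35 for pectate lyase 13, -1.85 for the glucan endo-1,3-beta-glucosidase and 3.34 for a 36.4 kDa proline-rich protein (c77264.graph_c0). Transport genes gave 2.10 for TIP1-1, 1.92 for TIP2-2, 2.92 for lysine histidine transporter 1 and 2.09 for PLANT CADMIUM RESISTANCE 2 (c99021.graph_c0).

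Regulators and hormone genes gave -3.31 for CONSTANS-LIKE 7, 2.32 for bHLH63, -2.32 for the auxin-induced protein 5NG4 (c92680.graph_c0), 1.53 for the ARG7-like protein and 2.14 for the auxin-repressed protein. Protein turnover and defence genes gave 3.72 for the trypsin inhibitor, 2.08 for serine carboxypeptidase-like 26 (c110034.graph_c1), -2.02 for a 26S protease regulatory subunit (c107246.graph_c0), -2.13 for glutathione S-transferase U17 (c91534.graph_c0) and -1.53 for an oligosaccharyltransferase subunit (c103973.graph_c1).

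Genes with no known product gave 3.99 for c54411.graph_c0, 3.47 for c86033.graph_c1, 3.36 for c109509.graph_c0, 2.71 for c71959.graph_c1, -3.32 for c103316.graph_c5, -2.89 for c94278.graph_c0, -1.30 for c96157.graph_c0 and -1.12 for c102604.graph_c1. They also gave 1.69 for c110482.graph_c0 and 2.22 for c99223.graph_c0. The undescribed genes c99774.graph_c0, c58402.graph_c0, c103789.graph_c1 and c104357.graph_c0 gave 4.26, 4.19, -3.50 and -2.63. Gene c54411.graph_c0 stood at 286 and 177 FPKM in petal on day 1 against 12.2 and 9.31 in corolla, and at under 1 FPKM in all day 7 libraries. Gene c58402.graph_c0 is listed at 0 in corolla on day 1 and in petal on day 7, with 2.79 and 2.26 FPKM in petal on day 1 and 2.16 and 7.57 in corolla on day 7. Gene c86033.graph_c1 rose from 2.74 and 3.18 to 40.5 and 37.4 FPKM in corolla and stood at 33.3 to 38.0 FPKM in the 4 petal libraries.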

How the results depend on the processing

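Of the 173 genes that passed the interaction, all that were still tested (170 to 173) kept their sign in every refit of the whole table. In the refits without 1 library a sign could not have turned, since the differences of single libraries did not overlap between the days. The count was 131 with a pseudocount of 0.1 and 227 with at least 5 FPKM in 2 libraries. It was 99 with no filter (lost 51, gained 15), 106 with genes of 1 table added at 0 (lost 50, gained 18), 286 with median-of-ratios scaling (gained 44), 280 with TMM scaling (gained 44) and 16 with no variance trend (lost 10, gained 0). Leaving out 1 library at a time gave 14 to 215 interaction calls, 7 to 80 lost and 1 to 52 gained. The same fits gave 1654 to 4547 tissue differences on day 1 and 1181 to 2620 on day 7, and 1633 to 5642 day effects in corolla and 957 to 4557 in petal. A group left with 1 library was assumed to vary like the others. Of the 69 named genes that passed, 12 passed in all 8 of these fits and SWEET14 and c94278.graph_c0 in 0, and 13 to 55 passed in any given fit. The cause of these shifts was not tested. SWEET14 was tested in only 6 of the 8 fits.

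The repeat numbers are given in the labels with no word on pairing. Repeats of the same number deviated together between corolla and petal of a day, at r = 0.139 on day 1 and 0.293 on day 7 over 26460 genes, and not across days (-0.00523 to 0.000841). With the repeat number as a block 166 genes passed, 138 of them among the 173. With a block for the number within each day, 335 passed (gained 90), 158 of them among the 173.

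Among the 520 genes with counts in all libraries, limma called 14, edgeR 71 with library sizes from counts over FPKM and 70 with TMM factors, and DESeq2 101, with 11, 11 and 13 of the 14 among them and all 14 of the same sign. Their p-values were adjusted over 520 genes, those of limma over 26460. Signs turned only for 4 uncalled genes, whose interaction without 1 library ran from -0.225 to 0.0676 for lycopene epsilon cyclase (0.303 with a pseudocount of 0.1, 0.348 and 0.368 in edgeR, 0.311 in DESeq2), from -0.199 to 0.997 for trans-resveratrol di-O-methyltransferase, from -0.068 to 0.848 for Myb305 and from -0.414 to 0.181 for 1-deoxy-D-xylulose-5-phosphate synthase 2. With total depth unknown, no limit for values of 0 FPKM can be given.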

Other observations

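The lists do not hold every gene that passed, and some of the others are given here. The genes in this paragraph were chosen after their values were seen. Of 276 described genes with the chloroplast in their name, 26 passed the interaction as negative and 3 as positive (10.5%), against 54 and 47 of 1608 others (6.28%). Their median difference between the tissues went from 1.31 to 0.57 on the log2 scale, and 190 were higher in corolla on day 1 and 112 on day 7. Of 131 such genes that are in none of the lists, 10 passed as negative and 1 as positive (8.4%, near the 6.28% of the others). Among them are TIC 20-I (c95953.graph_c0; 35.3 and 43.4 to 10.1 and 7.5 FPKM in corolla, 5.67 and 5.66 to 5.7 and 4.28 in petal) and TIC 62 (c105578.graph_c1; 63.7 and 61.1 to 16.5 and 18 FPKM in corolla, 23.5 and 22.3 to 14.6 and 15.4 in petal), parts of the machinery that brings proteins through the inner plastid membrane. The described gene TIC 32 (c90015.graph_c0), of the same machinery, went from 59.4 and 54.7 to 8.23 and 8.71 FPKM in corolla and from 8.4 and 9.11 to 13.4 and 11.1 in petal. Both subunits of plastid glyceraldehyde-3-phosphate dehydrogenase, an enzyme of the Calvin cycle, fell towards petal in corolla, with interactions of -2.02 ± 0.26 for GAPA1 (c84469.graph_c0) and -1.78 ± 0.29 for subunit B (c104757.graph_c0).

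Of the GDSL esterase/lipase genes, a family that includes cutin synthases, 3 that passed are given here. Gene c84924.graph_c0 lost its difference (8.98 and 8.27 to 0.72 and 0.36 FPKM in corolla, 0.12 and 0.16 to 0 and 0.29 in petal), c96700.graph_c0 narrowed (66.1 and 60.2 to 16.9 and 12 FPKM in corolla, 1.95 and 1.27 to 2.42 and 1.64 in petal) and c104312.graph_c0 widened with petal higher (from -2.49 to -4.13 on the log2 scale). Galactinol synthase 1 (c102146.graph_c0), which starts raffinose synthesis, had 7.84 and 13.2 FPKM in corolla and 47.3 and 38.5 in petal on day 1, and 28.9 and 27.8 in corolla and 16.1 and 17.1 in petal on day 7. The isoleucine N-monooxygenase gene (c95271.graph_c2), a cytochrome P450 of cyanogenic glucoside synthesis in Lotus, widened from 0.11 and 0.19 FPKM in corolla and 42.3 and 43.2 in petal on day 1 to 0.46 and 0.35 in corolla and 269.9 and 466 in petal on day 7. It rose in petal and stayed under 1 FPKM in corolla.

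Genes listed for 1 tissue alone were not in the test. Of 13914 listed for corolla only, 332 reached 1 FPKM in 2 libraries, and 73 of these were higher in both day 7 libraries and 70 in both day 1 libraries. Of 16606 listed for petal only, 480 did, with 132 and 71.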
